A study of Mus musculus with 2 samples.

Results

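The myogenic lineage genes considered here are Myod1, Myf5, Myf6, Myog, Pax3, Pax7, Mef2c, Des, Ckm and Myh3. They were taken by symbol, whatever their status, and with earlier results of these data known. Each of the 10 had 1 entry among the 20906 entries with a gene symbol. The transcriptomes compared are those of Dnmt1+/+ and Dnmt1-/- mouse embryonic fibroblasts (MEFs), cultured connective tissue cells of the embryo, with 1 strand-specific mRNA-seq library each. Dnmt1 is the enzyme that copies DNA methylation to new strands, and in the cells called Dnmt1-/- both of its alleles are hypomorphic, which leaves the genome with little methylation. The cells of both genotypes are also null for trp53, which encodes p53, and their strain is given as unknown. Each genotype was measured in 1 line only, so that the effect of the Dnmt1 genotype and other differences between these lines cannot be told apart. Whether a line derives from 1 clone or embryo is not given in the sources used here.

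Skeletal muscle is specified by a family of basic helix-loop-helix (bHLH) factors, Myf5, Myod1, Myog and Myf6. Myf5 and Myod1 act early, in committing a precursor to the muscle fate, Myog drives differentiation into fibres, and Myf6 has roles at both steps. Upstream of them, the paired-box factors Pax3 and Pax7 mark muscle precursors and satellite cells, and Pax3 is also a factor of the neural crest. Mef2c is a MADS-box partner of the bHLH factors, and Des, Ckm and Myh3 encode muscle proteins made on differentiation. Demethylating agents are known to turn some fibroblast lines into muscle cells.

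Abundance was given as RPKM, the reads on each transcript corrected for transcript length and library depth, so that levels can also be compared between genes. Pairs of values below are in the order Dnmt1+/+, then Dnmt1-/-. Changes were computed on the log2(RPKM + 0.1) scale, as Dnmt1-/- minus Dnmt1+/+, on which changes at low RPKM appear smaller than they are. A gene was compared with the others if its entry had the status OK, by which Cuffdiff marks an entry it could test, and if it reached 1 RPKM in either library. Of all genes, 11244 met this, with a median log2 change of -0.14, to which single changes are relative. With 1 library per genotype there was no replicate error and no test of any difference, and the values describe these libraries. The RPKM of Dnmt1 itself was 65.2 and 14.5. The RPKM of genes with 1 annotated transcript fell in steps of the value of 1 read. From these steps the libraries were estimated to hold about 55900000 and 62400000 reads, which allowed each RPKM to be turned into an approximate number of reads.

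DNA methylation in mammals sits on CG dinucleotides, and the sequence before the start of the genes is therefore shown for 3 members, with each CG in capitals. Myf5 was the member with the largest increase, Des the member with the largest decrease, and Myog stayed close to 0 in both libraries. Each sequence is the 250 bases upstream of the RefSeq start, 5′ to 3′ on the strand of the gene, located in mm9 by an exact match to the NCBI37 genome. The Myf5 sequence is at chr10:106923191-106923440 on the minus strand, the Myog sequence at chr1:136186331-136186580 on the plus strand, and the Des sequence at chr1:75356617-75356866 on the plus strand.
Myf5: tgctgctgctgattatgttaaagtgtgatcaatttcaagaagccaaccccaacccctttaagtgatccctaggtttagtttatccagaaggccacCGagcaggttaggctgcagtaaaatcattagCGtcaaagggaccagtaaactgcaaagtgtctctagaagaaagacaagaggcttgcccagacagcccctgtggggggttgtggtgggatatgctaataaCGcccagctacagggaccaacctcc
Myog: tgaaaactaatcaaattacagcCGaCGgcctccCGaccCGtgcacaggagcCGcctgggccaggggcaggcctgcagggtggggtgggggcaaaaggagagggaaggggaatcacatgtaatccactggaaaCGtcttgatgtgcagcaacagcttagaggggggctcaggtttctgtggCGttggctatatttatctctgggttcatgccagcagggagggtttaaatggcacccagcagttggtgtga
Des: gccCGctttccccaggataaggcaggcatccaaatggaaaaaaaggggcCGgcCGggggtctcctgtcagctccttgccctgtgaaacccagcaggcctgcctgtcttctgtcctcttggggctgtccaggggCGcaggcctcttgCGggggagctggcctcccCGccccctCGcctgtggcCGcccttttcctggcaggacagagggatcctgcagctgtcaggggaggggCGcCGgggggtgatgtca

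The Myf5 sequence held 3 CG dinucleotides, Myog 7 and Des 10. Across the 32851 RefSeq promoters the median was 6, the lower quartile 2 and the upper quartile 16, so that none of the 3 lay outside the middle range. As few as 3 CG were found in 37.8% of all promoters. The RefSeq promoter table matched 7 of the 10 members with 9 promoters, and Myod1, Myf6 and Pax3 had no entry. Pax7 had the most, with 13 CG, and 1 of the 3 Mef2c promoters had the fewest, with 1. The E-box CANNTG, the core motif bound by bHLH factors, was counted on both strands, where it reads the same. It was absent from the 250 bases of Myf5, Pax7 and 1 Mef2c promoter, present 1 time in those of Ckm, Myh3 and another Mef2c promoter, and present 2 times in those of Myog, Des and the other Mef2c promoter, against 66.2% of all promoters with 1 or more. The E-box CAGCTG, which is one form of CANNTG, was present 1 time each in Des and Ckm and in 13.0% of all promoters. TATAAA, counted on both strands, was present in Myh3 and in 2 of the 3 Mef2c promoters, and in 12.4% of all promoters. These matches describe the letters of the windows only.

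**Figure D1:**
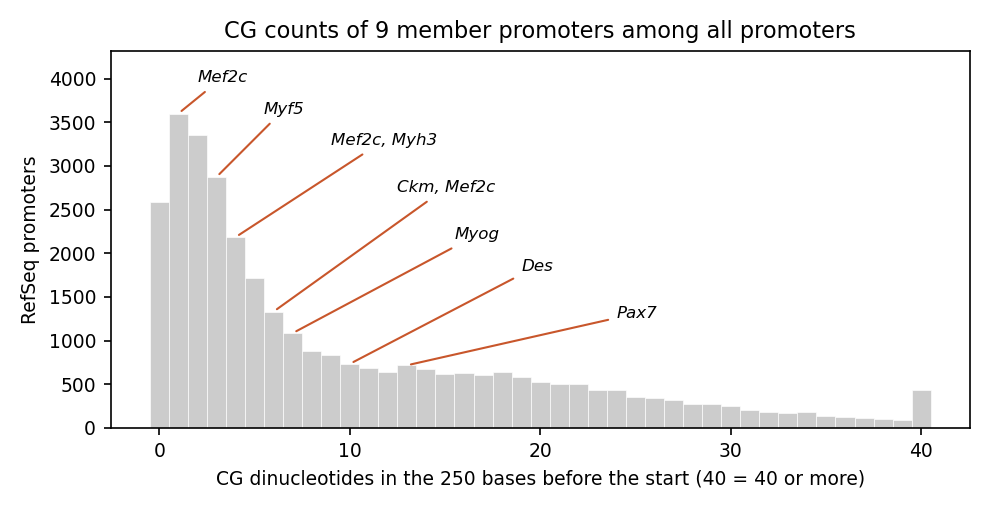
Number of CG dinucleotides in the 250 bases before the start (horizontal axis) for all RefSeq promoters (bars, number of promoters), with the 9 promoters of 7 members marked by name. The members spread from 1 to 13, and the Myf5 promoter, with 3, lies below the median of 6.

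Among the 10 members, Pax3 was the most abundant in both libraries, Mef2c was expressed in both, and Myf5 was the one that went from near absence to a clear level. The other 7 stayed under 1 RPKM in both libraries, and 5 of them, Myod1, Myog, Pax7, Ckm and Myh3, stayed under 0.1 RPKM. Cuffdiff gave the status OK to 6 members. Myod1, Myog, Pax7 and Ckm had the status NOTEST, by which Cuffdiff marks an entry it did not test. By the numbers alone 6 members were higher and 3 lower in Dnmt1-/- MEFs, and Pax7 was listed at 0 in both. Only Pax3, Mef2c and Myf5 reached 1 RPKM. Of these, 1 was more than 2-fold higher, where 8.47% of all genes compared were, and none was more than 2-fold lower, where 10.9% of all genes were. A count over 3 genes can hardly be read against such shares. Among the 6 members with the status OK and no minimum RPKM, Myf5 was more than 2-fold higher and Des more than 2-fold lower, where 9.92% and 11.1% of the 14865 entries were. Myh3 is also among these 6, and whether it counts depends on the pseudocount, since its log2 change was 0.65 with 0.1, 2.11 with 0.01 and 3.02 without one.

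**Figure D2:**
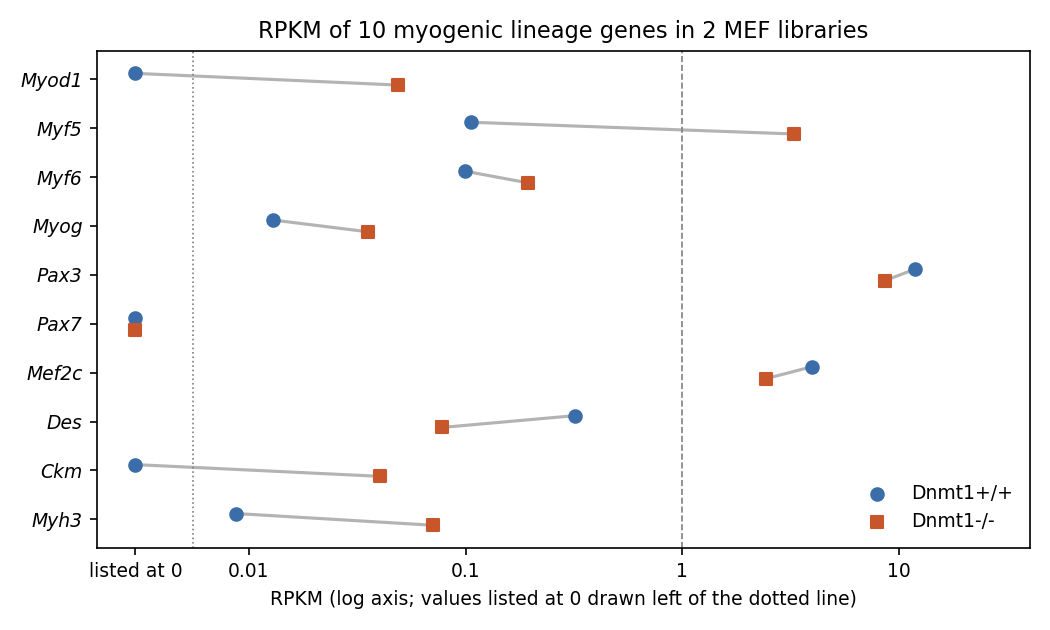
RPKM (log axis) of the 10 members in the Dnmt1+/+ library (circles) and the Dnmt1-/- library (squares), with values listed at 0 drawn left of the dotted line and 1 RPKM marked by the dashed line. Each point is 1 library, so no error is drawn. Myf5 is the one gene that crosses 1 RPKM, from 0.106 to 3.28.

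Myf5 (chromosome 10, positions 106919964 to 106923190 in mm9, minus strand) was at 0.106 and 3.28 RPKM. The level in Dnmt1-/- MEFs was 30.9-fold higher, a log2 change of 4.04. The approximate number of reads was 12 in Dnmt1+/+ and 426 in Dnmt1-/-, which puts the fold between 18.0 and 62.1 in the exact (Clopper-Pearson) 95% interval. This interval covers counting error only. Of the 11244 genes compared, Myf5 ranked 162 by increase. Since Myf5 passed the minimum of 1 RPKM through the Dnmt1-/- library alone, its direction was fixed by the filter. Without the filter, 958 entries with the status OK had between 0.05 and 0.2 RPKM in Dnmt1+/+, a band set around the value of Myf5 after it was seen. Of these, 95 (9.92%) reached 1 RPKM in Dnmt1-/- and 30 (3.13%) reached 3 RPKM.

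Even after this increase Myf5 was a gene of modest level, with 8747 of the 11244 genes at a higher RPKM in the Dnmt1-/- library. In that library Myf5 held most of the RNA of its family. The summed RPKM of Myod1, Myf5, Myf6 and Myog was 0.218 and 3.56, and the share of Myf5 in it was 48.6% and 92.2%. The share in Dnmt1+/+ rests on only about 12 reads of Myf5, 7 of Myf6 and 1 of Myog. In a bulk library, fewer cells of a type and less RNA per cell cannot be told apart.

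Myf6 lies next to Myf5 on the same strand, with an entry from 106929916 to 106939611, and 6725 bases separate the annotated genes. Myf6 was at 0.0993 and 0.194 RPKM. The fold of 1.96 rested on about 7 and 15 reads, and its 95% counting interval, from 0.737 to 5.57, includes no change. The assembled entry of Myf6 reaches 7826 bases beyond the annotated start of the gene, so its length and read number are uncertain. The pair therefore had like levels in Dnmt1+/+ MEFs and differed in Dnmt1-/- MEFs, where Myf5 was well above Myf6.

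The named entries that reach within 600 kb of the start of Myf5, a distance chosen after the values were seen, differed in the direction of their changes. Ptprq, which encodes a receptor phosphatase and is the next named entry beyond Myf6, was at 3.25 and 3.86 RPKM, and 2 unnamed entries at the same locus were at 1.90 and 1.25 and at 2.30 and 2.63 RPKM. On the other side of Myf5, Lin7a was at 0.478 and 0.0478 RPKM, and Acss3 at 0.0415 RPKM and listed at 0. Otogl was at 0.0399 and 0.130 RPKM. Ppfia2, the farthest of them, was listed at 0 and at 3.66 RPKM. Along the region some levels were thus higher in Dnmt1-/-, some lower and some nearly equal. Those of Lin7a, Acss3 and Otogl were under 1 RPKM in both libraries, and no counting interval was computed for these neighbours.

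**Figure D3:**
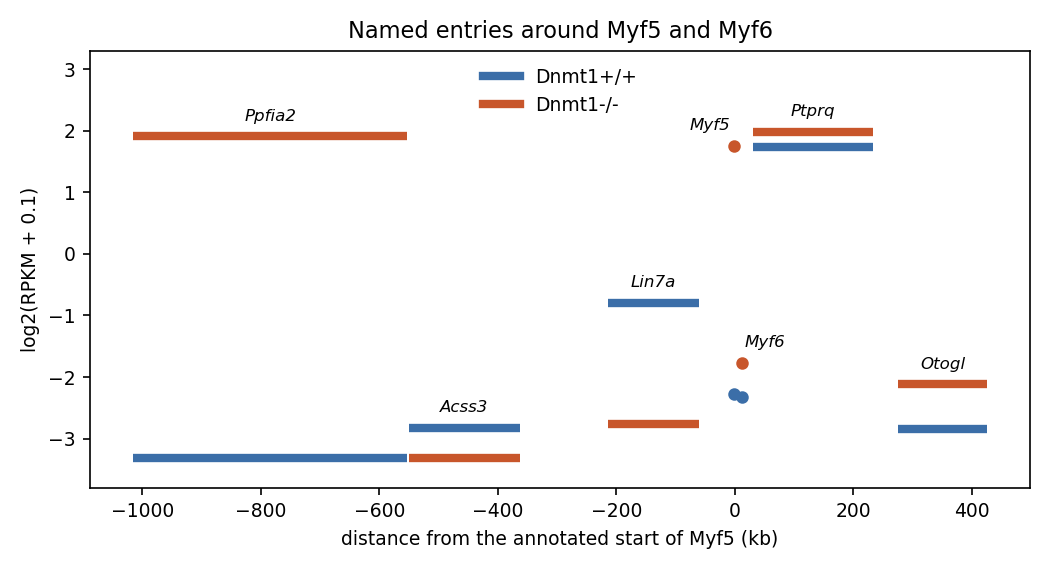
Level, as log2(RPKM + 0.1), of the named entries around Myf5 in each library (bars spanning each locus, with a dot on the short loci of Myf5 and Myf6), against distance in kb from the annotated start of Myf5, which is transcribed towards negative values. Myf5 and Ppfia2 are higher in Dnmt1-/-, Lin7a is lower, and Ptprq is close to equal.

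Myod1, the factor known for converting fibroblasts to muscle, was listed at 0 and at 0.0489 RPKM. The gene occupies positions 53631844 to 53634462 of chromosome 7, plus strand. The value in Dnmt1-/- corresponds to about 6 reads. Myog (chromosome 1, positions 136186581 to 136189125, plus strand) was at 0.0130 and 0.0355 RPKM, which corresponds to about 1 and 3 reads. At this depth neither gene had more than a trace of RNA in either library.

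Pax3 spans 78097842 to 78193711 on the minus strand of chromosome 1. It was at 11.9 and 8.58 RPKM, and the log2 change was -0.46. In Dnmt1+/+ it stood above 51.4% of all genes compared, and in the other library above 45.0%. The fold of 0.723 had a counting interval from 0.681 to 0.766, which lies below 1, but the change stayed within 2-fold and is not judged against replicates. Pax7, its paralog (chromosome 4, positions 139293996 to 139388883, minus strand), was listed at 0 in both libraries.

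Mef2c spans 83663855 to 83806684 on the plus strand of chromosome 13. Mef2c was at 3.95 and 2.44 RPKM, and the log2 change was -0.67. The fold of 0.618 had a counting interval from 0.570 to 0.671. Like Pax3, Mef2c was somewhat lower in the Dnmt1-/- library and within 2-fold.

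Of the genes for muscle proteins, Des (chromosome 1, positions 75356919 to 75364290, plus strand) encodes desmin, the intermediate filament of muscle cells. It was at 0.318 and 0.0780 RPKM, with about 54 and 15 reads, and the log2 change was -1.23. The fold of 0.245 had a counting interval from 0.130 to 0.448. Myh3 (chromosome 11, positions 66891802 to 66915793, plus strand), which encodes embryonic myosin heavy chain, was at 0.00870 and 0.0706 RPKM, or about 3 and 27 reads. Its fold of 8.11 had a counting interval from 2.48 to 41.5, while on the log2(RPKM + 0.1) scale its change was 0.65. Ckm (chromosome 7, positions 19996443 to 20006932, plus strand), the muscle creatine kinase, was listed at 0 and at 0.0402 RPKM, about 4 reads. Thus Des had fewer and Myh3 more reads in Dnmt1-/- MEFs, at levels under the minimum of 1 RPKM. The reads of Pax3, Mef2c, Des and Myh3 were computed with the longest annotated transcript and are less certain than those of the single-transcript genes.

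**Figure D4:**
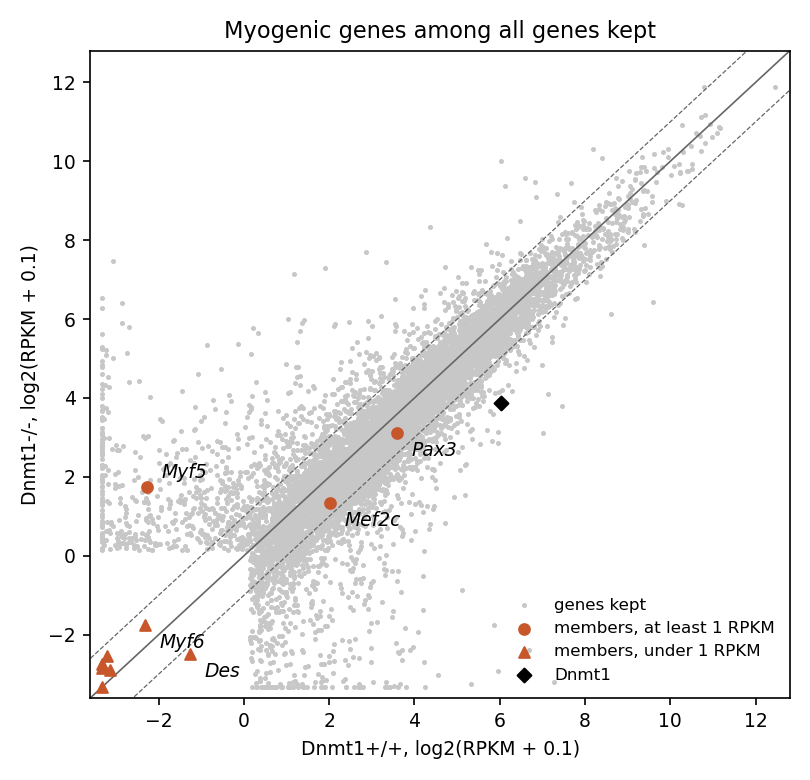
Level in Dnmt1-/- against level in Dnmt1+/+, both as log2(RPKM + 0.1), for the 11244 genes compared (grey), the members (circles, at least 1 RPKM in either library, and triangles, under 1 RPKM) and Dnmt1 (diamond), with equality as a solid line and 2-fold changes as dashed lines. Of the members at or above 1 RPKM, Myf5 lies above the upper dashed line while Pax3 and Mef2c lie between the lines.

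Regulators upstream of the myogenic bHLH genes were examined as a list of 12, of which 6 could be compared. Among these, 1 was past 2-fold upwards and 3 downwards, and the median log2 change was -0.90, against -0.14 for all genes. Of all genes compared, 8.47% were past 2-fold upwards and 10.9% downwards. These shares also stand beside the list counts below that use the minimum of 1 RPKM. Lists this small can hardly be read against them. Eya1, a transcriptional coactivator in muscle precursors, was at 0.921 and 4.25 RPKM and passed the minimum through Dnmt1-/- alone. Six4, a homeobox factor that works with it, was lower, at 3.86 and 1.60 RPKM. Meox1, a homeobox factor of the somite, was at 5.08 and 0.0147 RPKM, and passed it through Dnmt1+/+ alone. Met, the receptor used by migrating precursors, was at 14.9 and 20.9 RPKM, within 2-fold. Lbx1, Meox2, Tcf15 and Msc were listed at 0 in both libraries.

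The bHLH partners of the myogenic factors, known as E proteins, were abundant in both libraries. Tcf3 was at 60.2 and 40.1 RPKM, and Tcf12 at 33.6 and 24.8. Tcf4, at 22.2 and 10.9 RPKM with a log2 change of -1.02, was the one of 5 E protein and Mef2 genes compared that was more than 2-fold lower, and none was higher. Tcf4 is no longer past 2-fold once the median over all genes is taken off. A list of 10 genes was taken as inhibitors of the myogenic factors, without a check of each role. Of the 7 compared, 2 were past 2-fold upwards and none downwards. Id1, which binds E proteins and keeps them from the myogenic factors, was at 4.33 and 58.1 RPKM, and Id2 at 2.0 and 17.6. Id3 was the most abundant, at 97.8 and 181.0 RPKM, within 2-fold. Id4 and Hey1 were under 1 RPKM in both libraries and lower in Dnmt1-/-, Id4 at 0.423 and 0.0678 and Hey1 at 0.880 and 0.319 RPKM. With no minimum RPKM, 2 inhibitors were past 2-fold upwards and 2 downwards.

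Genes of myoblast fusion and of the neuromuscular junction were a list of 11, with 4 compared. Of these, 2 were more than 2-fold higher, beside 8.47% of all genes compared. Rapsn, which clusters acetylcholine receptors at the junction, was at 0.192 and 4.86 RPKM, a log2 change of 4.08, and passed the minimum through Dnmt1-/- alone. Bin1, a membrane-bending protein, was the highest of the list, at 64.9 and 49.9 RPKM. Chrnb1, the beta subunit of the receptor, was at 1.47 and 4.99 RPKM. The other subunits measured stayed under 0.1 RPKM, with Chrna1 listed at 0 and at 0.0932. Cdh15, the cadherin of muscle precursors, was at 0.0289 and 0.869 RPKM and so remained under the minimum. Tmem8c, the membrane protein needed for fusion, was listed at 0 in both libraries.

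Genes of the contractile apparatus were mostly at low levels in both libraries. Of 31 sarcomere entries, 22 (71.0%) stayed under 1 RPKM in both libraries, as did 46.2% of all 20906 named entries. Among the 22, Myom1 was at 0.590 and 0.660 RPKM and Mylpf at 0.415 and 0.768, while Tnnt3 was listed at 0 with the status FAIL. Of the 9 compared, 2 were more than 2-fold higher and 1 lower. Tnni1 and Tnni2, the slow and fast skeletal troponin I genes, went from 0.124 to 1.01 and from 0.750 to 1.77 RPKM, and Actn3, an alpha-actinin of fast fibres, from 1.35 to 0.508, passing the minimum through Dnmt1+/+ alone. Tnni1 reached the minimum through the Dnmt1-/- library alone, as did Tnni2. Acta1, the skeletal alpha-actin gene, had the highest level in Dnmt1-/-, 42.8 RPKM, against 28.8 in Dnmt1+/+. It shares much of its coding sequence with Acta2, which was at 1435 and 1348 RPKM, so its value is uncertain. The entry that holds Ttn joins it with Ccdc141, Cwc22 and Sestd1 and was at 32.7 and 20.4 RPKM, from which no level of Ttn can be taken. The adult and neonatal myosin heavy chains Myh1, Myh2, Myh4 and Myh8 were at or below 0.0184 RPKM in both libraries. Myh7, another myosin heavy chain, was lower in Dnmt1-/-, at 0.109 and 0.00371 RPKM, while Myoz1 was higher, at 0.0281 and 0.267. With no minimum RPKM, 19 sarcomere entries were compared. Of these, 3 were past 2-fold upwards and 2 downwards, beside 9.92% and 11.1% of all entries compared.

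Of 17 genes of calcium handling and muscle metabolism, 15 stayed under 1 RPKM in both libraries, and neither of the 2 compared, Eno3, the highest at 55.6 and 97.8 RPKM, and Fbxo32, changed more than 2-fold. Ryr1, the calcium release channel of muscle, was at 0.0109 and 0.103 RPKM. Mb, which encodes myoglobin, went the other way, at 0.382 RPKM and listed at 0. With no minimum RPKM, 8 of the 17 were compared. None was past 2-fold upwards and 1, Mb, downwards, beside 9.92% and 11.1% of all entries compared. Of the dystrophin complex 6 genes were compared, of which 1 was more than 2-fold higher, and Sgcb, at 7.18 and 3.20 RPKM, and Dtna, at 5.66 and 2.04, more than 2-fold lower. Utrn, at 35.2 and 31.1 RPKM, and Dag1, at 34.3 and 37.0, were the highest, and Dmd itself was listed at 0 in both libraries. The entry of Dmd is among 591 named entries that have the status OK and are listed at 0 in both libraries, so that its 0 is not taken as a level. Over all 7 lists of the muscle programme, 97 of 98 genes were matched and 39 entries compared. Of these 39, 8 were past 2-fold upwards and 7 downwards, and their median log2 change was -0.09. Of all 11244 genes, 952 (8.47%) were past 2-fold upwards and 1225 (10.9%) downwards. Among the 8, Eya1, Rapsn, Tnni1 and Tnni2 passed the minimum through Dnmt1-/- alone, so their direction was fixed by the filter. The same holds for Meox1 and Actn3 among the 7, which passed through Dnmt1+/+ alone. Another 58 entries stayed under 1 RPKM in both libraries, of which 14 were listed at 0 in both.

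**Figure D5:**
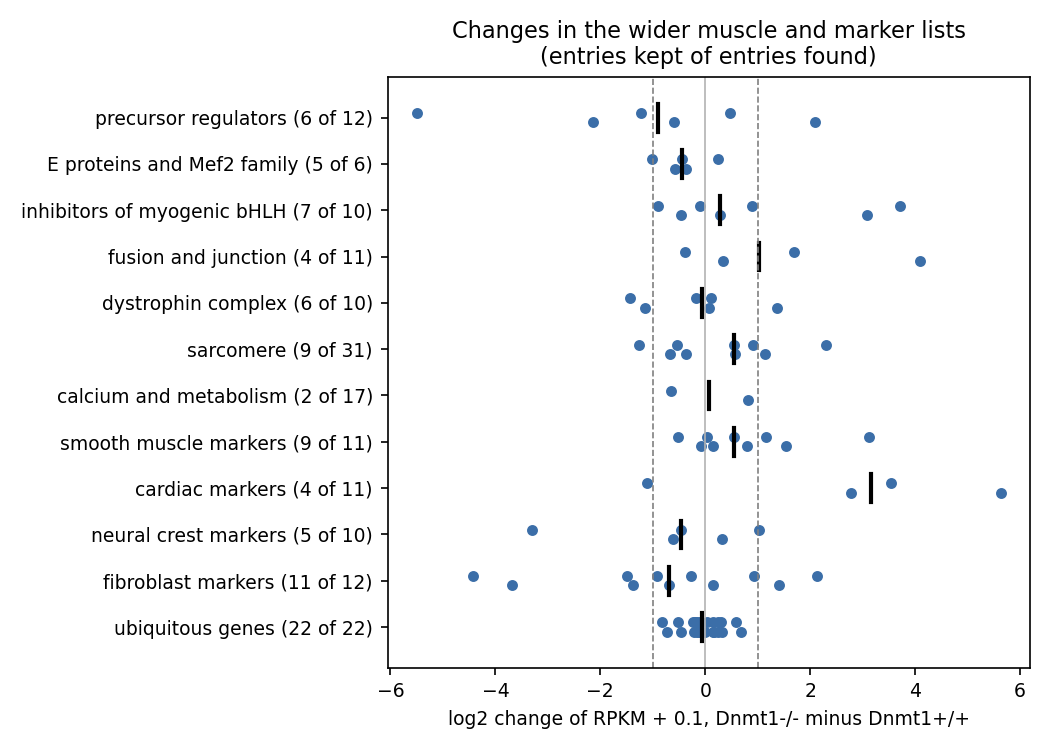
Log2 change of RPKM + 0.1, Dnmt1-/- minus Dnmt1+/+, for the entries compared in 7 lists of the muscle programme, in 4 lists of cell type markers and in a list of ubiquitous genes (points, with a black bar for the median of each list and dashed lines at 2-fold). Within the muscle lists changes go both ways, and the 22 ubiquitous genes all lie within 2-fold.

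Markers of other cell types were examined beside these values. Fibroblast markers were high in both libraries, with 11 of 12 at or above 1 RPKM in either library and a summed RPKM of 6468 in Dnmt1+/+ and 4994 in Dnmt1-/-. Vim was the highest, at 2269 and 1873 RPKM. Col1a2, at 1241 and 476, Fn1, at 664 and 235, Postn, at 176.6 and 13.7, and Thy1, at 4.84 and 0.129, were more than 2-fold lower, while S100a4, at 289.6 and 1262, and Pdgfra, at 6.95 and 18.7, were more than 2-fold higher, so that the lines differed within their fibroblast markers. Smooth muscle, which also expresses Des, had 10 of 10 markers matched, and their summed RPKM was 2092 and 2209. Most of this sum was Acta2, at 1435 and 1348, and Tagln, at 529 and 586. Mylk, at 1.30 and 12.1 RPKM, Smtn, at 19.6 and 56.9, and 1 of 2 Cnn1 entries, at 60.2 and 134, were more than 2-fold higher. Myh11, the defining myosin of smooth muscle, stayed at 0.312 and 0.594. The summed RPKM of 11 cardiac markers was 9.39 and 37.1, of which Tnnt2, at 2.30 and 27.7, made up most in Dnmt1-/-, while Myl2 and Hand1 were listed at 0 in both. Nkx2-5, a cardiac homeobox factor, was at 0.143 and 1.58 RPKM, and Nppb, a natriuretic peptide gene, was listed at 0 and at 4.85 RPKM. Tbx20 was lower, at 6.09 and 2.76. Under the minimum, Tnni3 was at 0.662 and 0.130 RPKM, Nppa at 0.173 and 0.0369, and Myh6 at 0.0284 and 0.00117. Myl7 and Myl3 were listed at 0 in Dnmt1+/+ and were at 0.0669 and 0.0497 RPKM in Dnmt1-/-. With no minimum RPKM, 7 cardiac markers were compared. Of these, 3 were past 2-fold upwards and 2 downwards, beside 9.92% and 11.1% of all entries compared. Of the neural crest, in which Pax3 is also active, 10 markers were matched, with a summed RPKM of 46.9 and 31.5. Snai2 was the highest, at 28.9 and 21.0 RPKM, Zic1 was lower, at 6.01 and 0.522, and Mitf higher, at 0.451 and 1.03. Of its defining genes, Sox10 was at 0.00895 RPKM and listed at 0, and Foxd3 and Ednrb were listed at 0 in both. How far a change in such cells enters the levels of Myf5, Pax3 or Des was not tested. Among these markers, Nkx2-5, Nppb and Mitf passed the minimum of 1 RPKM through Dnmt1-/- alone, and Zic1 and Thy1 through Dnmt1+/+ alone. The direction of their changes was thus fixed by the filter.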

How the data were processed

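There was 1 strand-specific mRNA-seq library per genotype. The authors aligned reads to mm9 using TopHat, built transcript models in Cufflinks, and deposited the RPKM and status that Cuffdiff gave each entry. Versions, and any further scaling of the libraries, are not given in the sources used here. Scaling or assembled transcript ends could shift the RPKM of single genes.

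The members and lists were chosen with earlier results of these data known. Members were taken whatever their status. Changes were differences of log2(RPKM + 0.1). Entries with status OK, a symbol and at least 1 RPKM in either library were compared, and 2-fold changes counted. The rule for named genes took all members, Dnmt1, and from each list except the ubiquitous one the genes past 2-fold, the highest in each library, and markers listed at 0 in both. A few genes that this rule takes are not reported here, though the list counts include them. Every other gene named, such as Cdh15, Met, Ryr1 and the neighbours of Myf5, was chosen after its value was seen.

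The value of 1 read was taken as the densest point of RPKM times length in GENCODE genes with 1 transcript of at least 600 bases. The range searched was set after the steps had been seen in the data and with the depths stated in the study known, so the estimate is not independent of those. The promoter description was also added after the values were seen. Of such genes between 0.5 and 1.5 reads, 51.9% in Dnmt1+/+ and 59.5% in Dnmt1-/- lay within 15% of 1 read. Reads were RPKM times the longest transcript, rounded, and are approximate. Reads without molecular identifiers are not independent molecules, so the exact 95% binomial intervals cover counting error only. The procedure was tested on simulated data, where transcript lengths had only a small random error. Such a test does not show how accurate the read numbers are in these libraries. The reference is NCBI37 with GENCODE M1, the same build as mm9, and entry starts are given 1-based. Promoters were from RefSeq (GRCm38.p6). Python 3.11.15, numpy 2.4.6, pandas 2.3.3, scipy 1.17.1 and matplotlib 3.10.9 were used.

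Alternatives were pseudocounts of 1 and 0.01, no pseudocount, subtraction of the median change, no minimum RPKM, a mean RPKM of at least 1 and a 1.5-fold threshold.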

Additional observations from a re-analysis of the deposited data

How the results depend on the processing

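Of the members, Myf5 was the one counted as more than 2-fold higher under all 6 alternatives to the counts. None was more than 2-fold lower, except 1 with no minimum RPKM, which was Des. With a 1.5-fold threshold 1 was counted as lower, which was Mef2c, still within 2-fold. In 37 recomputed changes of single members none changed sign, and 30 moved by more than 0.1 on the log2 scale, where the subtraction of the median alone moves each by 0.14. The log2 change of Myf5 was 1.95 with a pseudocount of 1, 4.82 with 0.01 and 4.95 without one. That of Des was -0.29 with a pseudocount of 1. The number of genes of the muscle lists that were lower, 7 of 39, was 3 of 39 with a pseudocount of 1. It was 13 of 67 with no minimum RPKM and 11 of 39 with a 1.5-fold threshold. The share of all genes that were lower, 10.9%, was 7.12%, 11.1% and 23.7% in these settings, in that order. The number higher, 8, stayed between 6 and 11, while the share of all genes higher lay between 6.96% and 14.1%. Of the 144 recomputed counts of single lists, 24 moved by more than 1.5 times or to or from 0. With counts this small such a move can be 1 gene, and with no minimum RPKM more entries were compared. Subtracting the median change, 0.14, left 9.71% of all genes past 2-fold upwards and 8.58% downwards. No paired analysis was possible because each genotype has 1 library. With 1 library each, no replicate could be left out, and differences under a few reads were not detectable at this depth.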
